A study of Rattus norvegicus with 22 samples.

Results

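The calcaneal tendon (CT) of rats 28 days after injury of the gastrocnemius muscle (28D) was compared with that of control rats (C) over 22 target genes measured by qRT-PCR with TaqMan assays. The 2 groups were taken whole from the sample labels, 6 rats in 28D and 5 in C, which makes 11 of the 22 rats of the series. The others were killed 3 days (3D, 5 rats) or 14 days (14D, 6 rats) after injury and shared the same C rats. All were male Wistar rats, 4 months old at the start per the methods. In 28D the belly of the muscle had been frozen through a skin incision with an iron bar cooled in liquid nitrogen (cryolesion), and C rats had no muscle injury. The labels call the tendon of 28D injured, whereas per the methods the lesion was made in the muscle and not in the tendon. Each value came from the whole CT of 1 rat, so fewer cells of a type and less RNA per cell cannot be told apart. SCX, MKX and TNMD, which mark tendon cells, had a measured value in all 11 rats. COL1A1, also a mark of these cells, had one in all but replicate 4 of C, where it was left out as described below. The panel holds no marker of muscle, blood or fat cells.

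Tendon is mostly type I collagen, laid down by tenocytes and held in register by small leucine rich proteoglycans such as decorin and fibromodulin. Scleraxis and Mohawk are transcription factors that keep tendon cells in their lineage and drive collagen genes, and tenomodulin is a membrane protein of mature tenocytes that scleraxis controls in mouse. TGF-β1 signals through SMAD2 and SMAD3 and raises matrix synthesis, while metalloproteinases and their inhibitors set how fast the matrix is turned over.

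No gene passed the test between 28D and C. The tendon transcription factors SCX, MKX and ERG1 and the mature tenocyte protein TNMD had the higher mean in 28D, by 1.69-fold to 1.87-fold, and so did TGF-β1 (1.49-fold) and IGF-1a (2.35-fold). Means of both fibrillar collagens and of VEGF were lower in 28D, at 0.598, 0.482 and 0.524 times those of C for COL1A1, COL3A1 and VEGF. In all, 15 genes had the higher mean in 28D and 7 the lower, with a median log2 difference of 0.39.

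The cycle threshold (Ct) is the PCR cycle at which the probe signal crosses a fixed line, so a later Ct means less mRNA. Log2 expression was the Ct of RPLP0, a ribosomal protein gene, minus the Ct of the gene, and a difference of 1 on this scale is 2-fold. Differences, their SE and 95% intervals came from limma, in 1 model of the 4 groups, and passed at an adjusted p under 0.05 over the genes and the 6 pairs of groups. With this rule 0 of 22 genes were called (0%), and limma also gave 0 genes with an unadjusted p under 0.05. That count was 6 with only 28D and C in the model and 5 without replicate 4 of 28D, again with 0 called after adjustment. The smallest adjusted p was 0.239, for SCX. Exact permutation of the rats, two-sided, gave 6 of 22 genes an unadjusted p under 0.05 (27.3%). Of these, 5 (22.7%) had the higher mean in 28D, namely TGF-β1, IGF-1a, SCX, MKX and TNMD, and 1 (4.55%), VEGF, had the lower. None passed after adjustment of the exact p-values, the smallest being 0.105. In 2 of 22 genes (9.09%), TGF-β1 and IGF-1a, every rat of 28D lay above every measured rat of C, and in none (0%) did every rat of 28D lie below. Neither of the 2 genes has a measured value in replicate 4 of C, and without that rat TNMD had no overlap either. The 95% intervals of the log2 difference were 1.41 to 5.03 wide, and 13 were wider than 2.

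**Figure D1:**
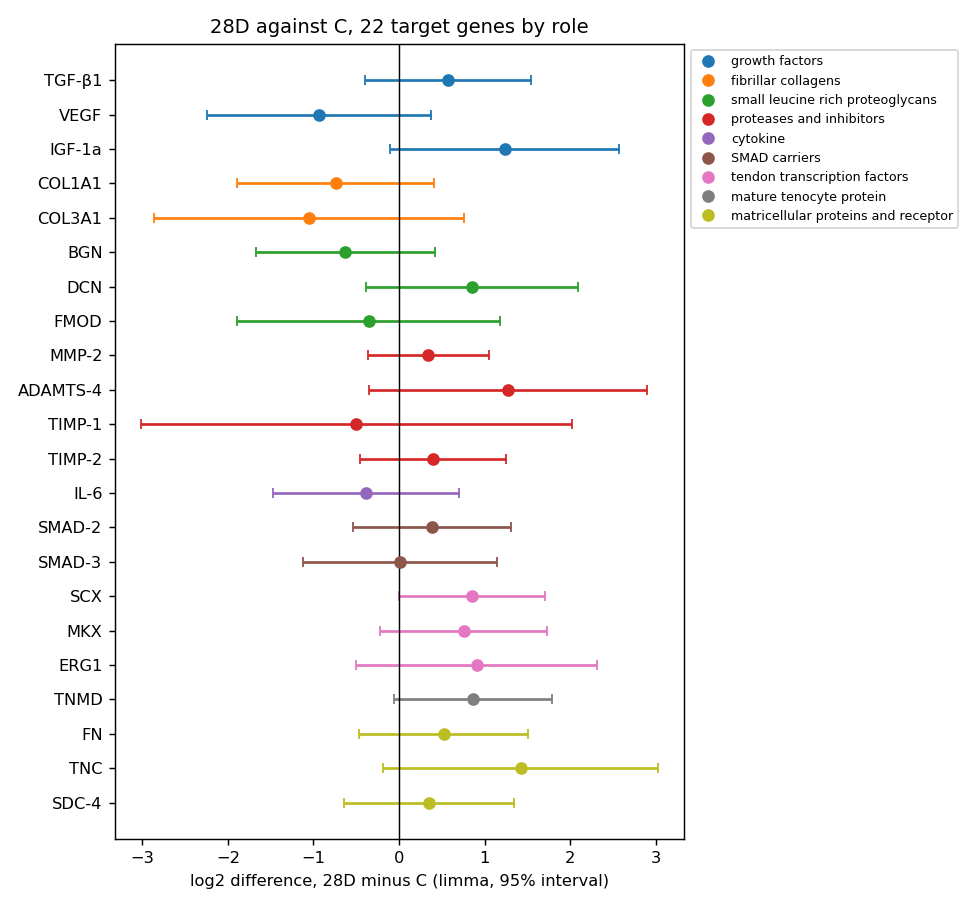
Log2 difference between 28D and C for each target gene (points) with its 95% interval from limma (lines), ordered and colored by role. All 22 intervals include 0, and that of SCX ends nearest to it, at -0.003.

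RPLP0, the divisor of every value, had a Ct of 30.0, 27.8, 29.5, 26.8, 29.2 and 29.8 in replicates 1 to 6 of 28D, against 26.9, 26.1, 26.4, 30.6 and 26.2 in replicates 1 to 5 of C. It averaged 28.8 ± 1.28 cycles in 28D and 27.3 ± 1.91 cycles in C (SD, n = 6 and 5), a difference of 1.57 cycles (exact permutation p = 0.134). Replicate 4 of C amplified RPLP0 later than every rat of 28D, and without it the difference was 2.41 cycles (exact permutation p = 0.0143, n = 6 against 4). RPLP0 thus came later in most rats of 28D, and a gene with the same Ct in both groups would have the higher log2 expression in 28D. With the Ct alone all 22 genes came later in 28D, with a median log2 difference of -1.86. As a second divisor the mean over the target genes measured in a rat was used, each gene first set to 0 at the mean of C (target-gene mean). With it 13 genes were higher in 28D and 9 lower, with a median of 0.12. This divisor is built from the tested genes themselves, most of them higher in 28D. Its use therefore lowered the log2 difference of each gene, and the shift is no separate result. That mean covers 14 genes in replicate 4 and 18 in replicate 1 of C, since values were left out there.

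**Figure D2:**
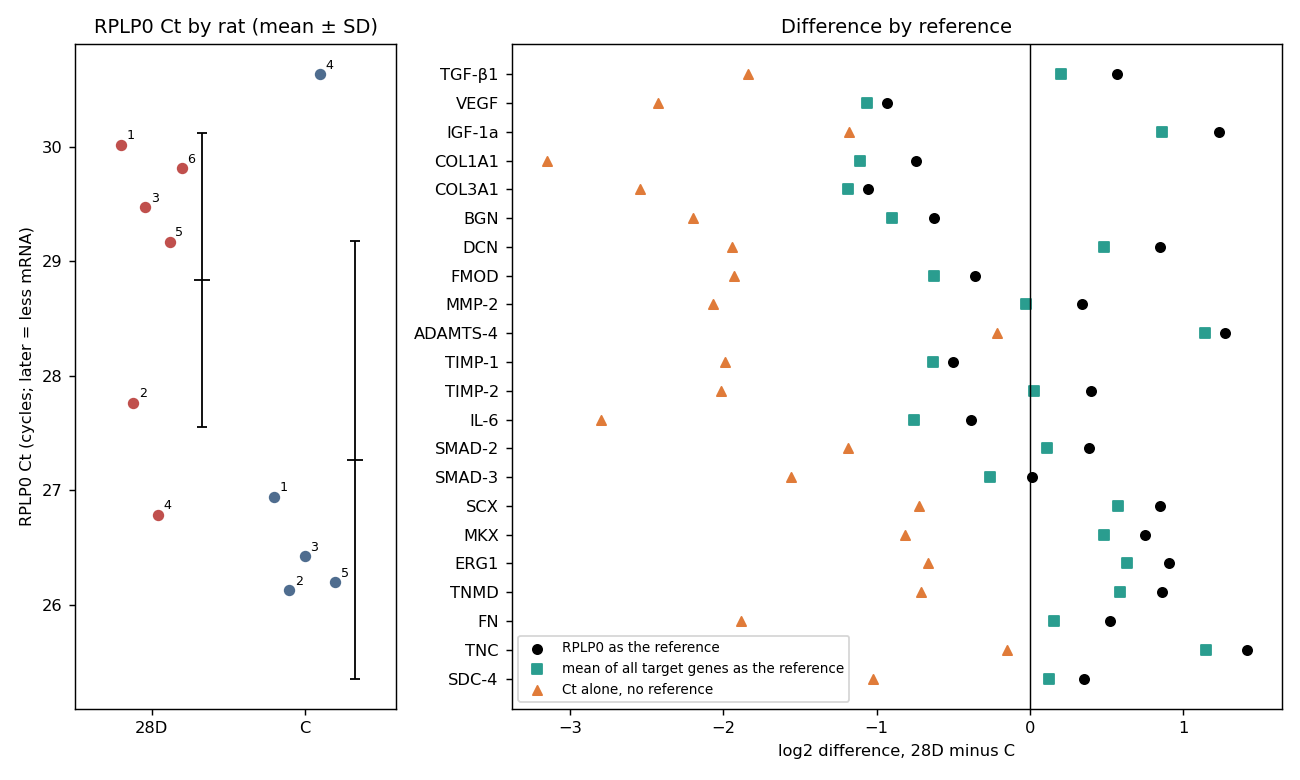
Left, Ct of RPLP0 in each rat of 28D and C, numbered by replicate, with the mean and SD in black. Right, log2 difference between 28D and C of each target gene with RPLP0, the target-gene mean or nothing as the divisor. With the Ct alone every gene lies below 0, and with either divisor SCX, MKX, ERG1 and TNMD lie above 0 and VEGF and the collagens below.

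Of the 242 values of the 11 rats, 229 were used. In C 12 values were equal to the mean of the other C rats and were left out as filled in. They were TGF-β1, IGF-1a, COL1A1, DCN, MMP-2, TIMP-2, IL-6 and FN in replicate 4 and VEGF, COL3A1, ADAMTS-4 and TIMP-1 in replicate 1, so those 12 genes have 4 C rats. In 28D 1 value was blank, SDC-4 in replicate 6. Only 9 of the wells used had a Ct above 35, 6 in 28D and 3 in C.

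Replicates 3 and 4 of 28D stood in opposite order in different genes. Replicate 3 had the later Ct in 18 genes, by 1.09 to 6.75 cycles, as it had for RPLP0. It had the earlier Ct in ADAMTS-4 (30.9 against 33.4 in replicate 4), TIMP-1 (28.3 against 32.1), TNC (26.6 against 29.5) and ERG1 (27.5 against 28.5). In ADAMTS-4, TIMP-1 and TNC the fold change table that the authors deposited has no entry that follows from the Ct of replicate 3, and its entries under replicates 3 and 4 of 28D equal those that follow from the Ct of replicates 4 and 5. Whether the 2 wells were exchanged in these genes cannot be told from the files. The differences of these 4 genes from C are therefore also given with the 2 Ct values exchanged and without both rats, alternatives chosen after the data were seen. The exchange stays within 28D, so it cannot move the mean of a gene, only the spread and the tests.

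**Figure D3:**
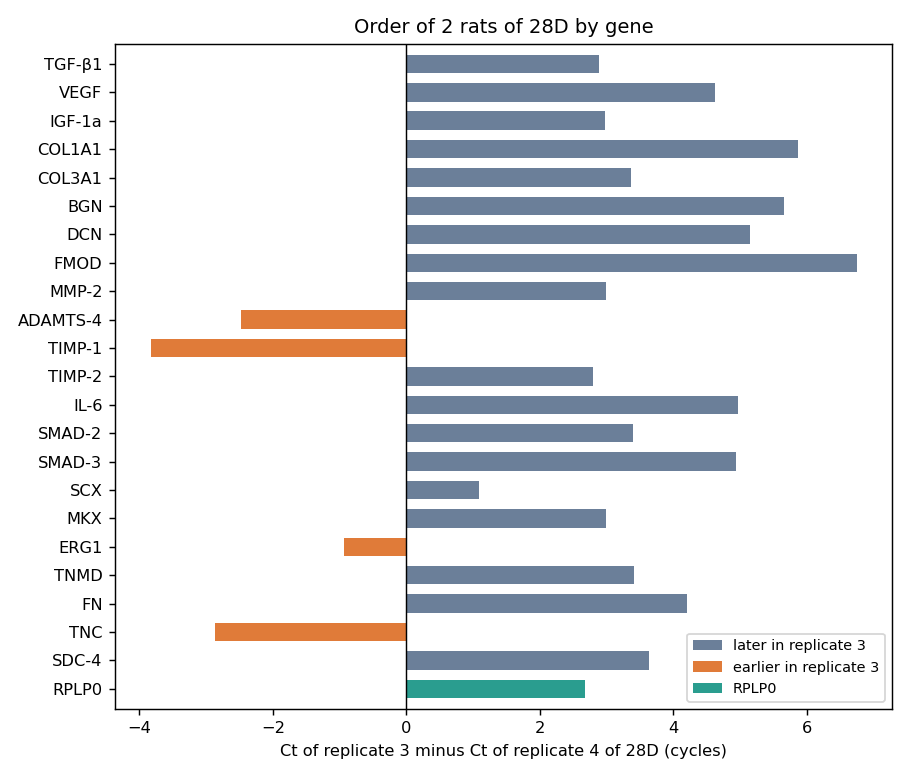
Ct of replicate 3 minus Ct of replicate 4 of 28D for each target gene and RPLP0, in cycles, as bars from 0. The 18 genes with a later Ct in replicate 3 and RPLP0 point right, and ADAMTS-4, TIMP-1, TNC and ERG1 point left.

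Growth factors: TGF-β1, a signal for tendon fibroblasts to make collagen, had a log2 expression of -2.996 at the lowest, -2.74 at the median and -2.34 at the highest in 28D, against -3.30, -3.23, -3.28 and -3.20 in the 4 C rats with a measured value. Every rat of 28D was above every rat of C, and the C rats lay close together. The SD was 0.27 in 28D and 0.05 in C. The log2 difference was 0.57 (SE 0.47, 95% interval -0.40 to 1.54, adjusted p = 0.506 from limma). That SE drew on the spread of all 4 groups, and in 3D replicate 2 stood at -6.21. With only 28D and C in the model the SE was 0.25 (adjusted p = 0.151 from limma). The exact permutation p was 0.00952, where 0.00476 is the smallest that 6 rats against 4 allow. Over the target-gene mean the difference was 0.20 and 1 of 6 rats of 28D lay above all C rats (exact permutation p = 0.333). The separation of the 2 groups in TGF-β1 was thus present with RPLP0 as the divisor and absent with the target-gene mean. That mean includes ADAMTS-4, TIMP-1, TNC and ERG1 as deposited. In 28D these stood 2.29 to 4.92 above the mean of C in replicate 3 and below it in replicate 4. Their part in the loss of separation was not tested.

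IGF-1a, an insulin-like growth factor under which tendon cells divide and make matrix, showed the same separation with a wider spread. Its log2 expression was -3.18 at the lowest, -2.64 at the median and -1.18 at the highest in 28D, against -4.29, -3.24, -3.85 and -3.20 in C. The gap between the groups was small, since the lowest rat of 28D at -3.18 was next to the highest of C at -3.20, and replicates 5 and 6 of 28D lay farthest up. The difference was 1.23 (SE 0.64, 95% interval -0.11 to 2.57, adjusted p = 0.275 from limma, exact permutation p = 0.0143). Over the target-gene mean it was 0.87, and 4 of 6 rats of 28D exceeded all C rats (exact permutation p = 0.0429).

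VEGF, which drives the growth of blood vessels, went the other way. Its log2 expression was -3.99 at the lowest, -3.17 at the median and -2.05 at the highest in 28D, against -2.38, -1.97, -2.08 and -1.96 in C. Only replicate 4 of 28D lay among the C rats, and the other 5 were below all of them. The difference was -0.93 (SE 0.63, 95% interval -2.24 to 0.37, adjusted p = 0.403 from limma, exact permutation p = 0.0286). Over the target-gene mean it was -1.06 and each of the 6 rats of 28D was below every C rat (exact permutation p = 0.0190). VEGF was the 1 gene without overlap on that divisor.

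The start regions of the 2 genes without overlap, and that of TNMD for the tenocyte genes below, are shown because the results turn on these genes. They are from RefSeq, build GRCr8, the 250 bases before the start of each gene, 5′ to 3′ on the plus strand, at chr1:90324062-90324311 for TGF-β1 (Tgfb1), chr7:24172282-24172531 for IGF-1a (Igf1) and chrX:101350182-101350431 for TNMD (Tnmd). Capitals mark matches to CANNTG, the E-box that bHLH factors such as scleraxis bind, which reads the same on both strands.
TGF-β1: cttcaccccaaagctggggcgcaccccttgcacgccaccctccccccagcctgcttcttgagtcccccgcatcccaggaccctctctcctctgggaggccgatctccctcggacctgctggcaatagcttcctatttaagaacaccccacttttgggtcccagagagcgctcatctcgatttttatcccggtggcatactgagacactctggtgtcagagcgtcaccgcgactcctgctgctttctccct
IGF-1a: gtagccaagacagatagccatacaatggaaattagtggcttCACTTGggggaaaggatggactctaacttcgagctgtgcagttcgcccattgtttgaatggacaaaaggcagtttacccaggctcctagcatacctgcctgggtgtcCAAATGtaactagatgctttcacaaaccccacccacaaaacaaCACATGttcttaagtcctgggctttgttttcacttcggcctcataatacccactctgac
TNMD: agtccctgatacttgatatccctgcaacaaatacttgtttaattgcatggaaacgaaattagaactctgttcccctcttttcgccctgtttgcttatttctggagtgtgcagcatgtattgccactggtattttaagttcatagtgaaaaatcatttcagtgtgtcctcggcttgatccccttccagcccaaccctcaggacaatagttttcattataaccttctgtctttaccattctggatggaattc
The stretch of IGF-1a holds 3 matches and those of TGF-β1 and TNMD none. Promoters of 15 of the 22 genes, 18 in all, were in the table used here, and 5 of the 18 (27.8%) hold the letters CANNTG, against 65.5% of all 33469 promoters of the same length. A motif of the EGR1 kind, GCGNGGGCG on either strand, was in none of the 18 and in 4.29% of all. A match of letters is a description of the stretch and shows no binding, and the lack of one says only that these letters are not in this window.

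**Figure D4:**
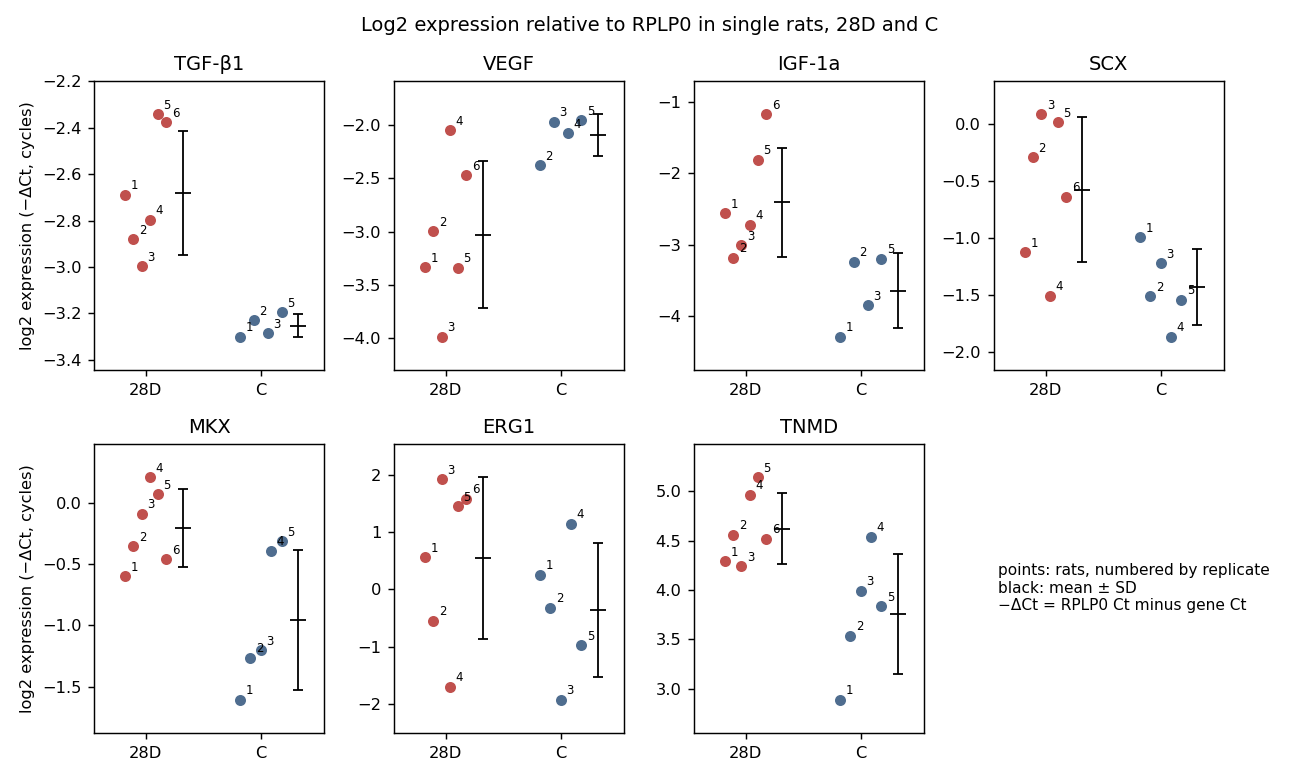
Log2 expression relative to RPLP0 of 7 genes in each rat of 28D and C (points, numbered by replicate), with the mean and SD in black. In TGF-β1 and IGF-1a no rat of 28D lies among the C rats, in VEGF replicate 4 does, and in SCX, MKX, ERG1 and TNMD the groups overlap.

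Developmental and differentiation factors: SCX (scleraxis) had a log2 expression of -1.51 at the lowest, -0.47 at the median and 0.08 at the highest in 28D, against -0.997, -1.51, -1.22, -1.87 and -1.54 in C. Replicates 2, 3, 5 and 6 of 28D lay above all C rats, and replicates 1 and 4 lay among them. The difference was 0.85 (SE 0.41, 95% interval -0.003 to 1.70, adjusted p = 0.239 from limma, exact permutation p = 0.032), or 1.80-fold. Leaving out any 1 rat moved it to between 0.72 and 1.04. On the target-gene mean it was 0.58, with 2 of 6 rats above all C rats (exact permutation p = 0.186).

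MKX (Mohawk), the homeobox factor of tendon, had a log2 expression of -0.59 at the lowest, -0.22 at the median and 0.22 at the highest in 28D, against -1.61, -1.26, -1.20, -0.39 and -0.31 in C. The C rats fell into replicates 1 to 3, below every rat of 28D, and replicates 4 and 5, which lay among them. The difference was 0.75 (SE 0.47, 95% interval -0.23 to 1.74, adjusted p = 0.359 from limma, exact permutation p = 0.032). On the target-gene mean it was 0.48, and 5 of 6 rats of 28D exceeded all C rats (exact permutation p = 0.0108).

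TNMD (tenomodulin) had the earliest mean Ct of the panel in 28D, 24.2 cycles, against 23.5 in C. Its log2 expression was 4.24 at the lowest, 4.54 at the median and 5.15 at the highest in 28D, against 2.89, 3.53, 3.995, 4.54 and 3.83 in C. Every rat of 28D lay above replicates 1, 2, 3 and 5 of C, and 3 of 6 lay above replicate 4 of C too, the rat with the late RPLP0. The difference was 0.86 (SE 0.45, 95% interval -0.06 to 1.79, adjusted p = 0.275 from limma, exact permutation p = 0.0130). Without replicate 4 of C it was 1.06 and the groups did not overlap (exact permutation p = 0.00476, n = 6 against 4, the smallest allowed). On the target-gene mean it was 0.59, with 4 of 6 rats above all C rats (exact permutation p = 0.0238).

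ERG1, which the deposited table pairs with Egr1, an early growth response factor that answers to mechanical load in tendon, was the most scattered of these factors. Its log2 expression was -1.70 at the lowest, 1.00 at the median and 1.92 at the highest in 28D, against 0.26, -0.32, -1.92, 1.14 and -0.97 in C. The 2 groups overlapped over most of their range. The difference was 0.91 (SE 0.68, 95% interval -0.50 to 2.31, adjusted p = 0.452 from limma, exact permutation p = 0.273). It came to 0.52 without replicate 3 of C and to 1.35 without replicate 4 of 28D. With replicates 3 and 4 of 28D exchanged the mean did not move, the SD in 28D was 1.00 in place of 1.41, and the exact permutation p was 0.197. Without both rats the difference was 1.12 (exact permutation p = 0.167, n = 4 against 5).

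Taken as a list, the 3 tendon transcription factors had log2 differences of 0.75 to 0.91 with a median of 0.85, beside a median of 0.39 over all 22 genes. None of the 3 passed. Against the shared C rats the differences were 0.01 in 3D, 0.11 in 14D and 0.85 in 28D for SCX. For MKX they were -1.23, 0.27 and 0.75, and for TNMD -0.66, -0.15 and 0.86. For ERG1 they were -0.87, -0.42 and 0.91, so all 4 genes had their highest mean at 28 days. Set directly against 14D, none of the 4 passed, with a log2 difference of 1.01 for TNMD (SE 0.42, adjusted p = 0.155 from limma), 0.74 for SCX (SE 0.39, adjusted p = 0.275), 0.49 for MKX (SE 0.45, adjusted p = 0.556) and 1.32 for ERG1 (SE 0.65, adjusted p = 0.239). For ERG1 the last value stayed at 1.32 with replicates 3 and 4 of 28D exchanged, which cannot move it (adjusted p = 0.164 from limma). It was 1.54 without both (adjusted p = 0.139 from limma).

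SMAD-2 and SMAD-3 encode the proteins that carry the TGF-β signal to the nucleus. Their log2 differences were 0.39 (SE 0.45, exact permutation p = 0.398) and 0.01 (SE 0.55, exact permutation p = 0.976), n = 6 against 5. In SMAD-3 replicate 4 of 28D stood alone at -1.30 while the other rats of 28D lay between -4.35 and -3.18, and the C rats ran from -4.55 to -2.33. Without that rat the difference of SMAD-3 was -0.41, and without replicate 1 of C that of SMAD-2 was 0.13. Without replicate 5 of C they were 0.29 for SMAD-3 and 0.56 for SMAD-2.

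Structural proteins: COL1A1, the main chain of type I collagen, had a log2 expression of -0.89, -0.06, -0.74, 2.44, 0.14 and -0.20 in replicates 1 to 6 of 28D, against 0.26, 0.46, 1.16 and 1.54 in the 4 C rats. Replicates 1, 2, 3, 5 and 6 of 28D were below every C rat, and replicate 4 was above every C rat. The difference was -0.74 (SE 0.55, 95% interval -1.89 to 0.41, adjusted p = 0.452 from limma, exact permutation p = 0.30). Without replicate 4 of 28D it was -1.21 (adjusted p = 0.0773 from limma) and the groups did not overlap. Without replicate 5 of C it was -0.51. Against 14D the difference of COL1A1 was -1.40 (SE 0.49, adjusted p = 0.079 from limma).

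COL3A1, the chain of type III collagen, a thin-fibril collagen of early repair, split the rats of 28D. Replicates 2, 5 and 6 had a log2 expression of 4.19, 4.42 and 4.24, within the range of C, and replicates 1, 3 and 4 had 1.87, 0.79 and 1.48, below every C rat, while the C rats ran from 3.19 to 4.67. The difference was -1.05 (SE 0.87, 95% interval -2.86 to 0.76, exact permutation p = 0.262). It was -0.65 without replicate 3 of 28D and -1.37 without replicate 5 of 28D. Both collagens were lower in mean in 28D, but the low rats were only in part the same, as replicate 4 had the highest COL1A1 and a low COL3A1.

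Small leucine rich proteoglycans: DCN encodes decorin, which binds collagen fibrils and limits their width. Its log2 expression was 1.33, 0.61, 0.01, 2.47, 2.29 and 2.26 in replicates 1 to 6 of 28D, against 0.02, 0.53, 0.95 and 1.08 in C. Replicates 1, 4, 5 and 6 lay above all C rats and replicate 3 just below all of them. The difference was 0.85 (SE 0.60, 95% interval -0.39 to 2.09, adjusted p = 0.426 from limma, exact permutation p = 0.167). In replicate 1 of C, the lowest C rat, the deposited Ct of DCN is the same as that of BGN, and its deposited ΔCt was kept.

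BGN (biglycan) and FMOD (fibromodulin), which take part in fibril assembly, had log2 differences of -0.63 (SE 0.51, exact permutation p = 0.312) and -0.36 (SE 0.74, exact permutation p = 0.671), n = 6 against 5. BGN lay between -4.47 and -1.48 in 28D, against -3.17 to -1.49 in C. FMOD lay between 0.79 and 4.86 in 28D, against 1.38 to 5.09 in C. In both genes replicate 3 of 28D was the lowest of all rats and the other 5 lay within or close to the range of C. Without it the differences were -0.29 for BGN and 0.11 for FMOD. At the other end they were -0.89 for BGN without replicate 4 of 28D and -0.89 for FMOD without replicate 1 of C. Within this list decorin and the 2 other genes thus differed in sign, and the median was -0.36.

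**Figure D5:**
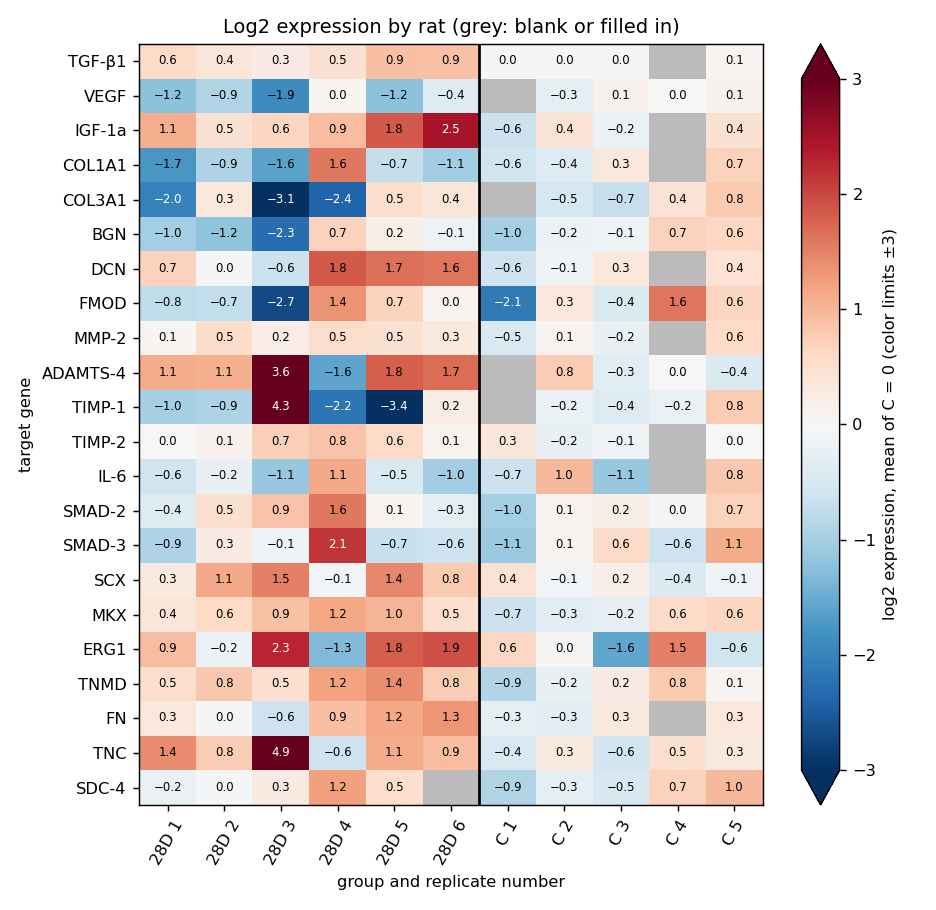
Log2 expression of the 22 target genes in each rat of 28D (left) and C (right), with the mean of C set to 0 and grey for values that were blank or filled in. TGF-β1, IGF-1a, MMP-2, MKX and TNMD are above 0 in all rats of 28D, and ADAMTS-4, TIMP-1 and TNC in replicate 3 reach 3.6 to 4.9.

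Matrix remodeling enzymes: ADAMTS-4, an aggrecanase that cleaves large proteoglycans, had a log2 expression of -3.85, -3.90, -1.41, -6.56, -3.18 and -3.30 in replicates 1 to 6 of 28D, against -4.20, -5.32, -4.98 and -5.40 in C. As deposited, 5 rats of 28D lay above all C rats and replicate 4 below all of them. The difference was 1.27 (SE 0.78, 95% interval -0.35 to 2.89, adjusted p = 0.345 from limma, exact permutation p = 0.190). Without replicate 3 it was 0.82. With replicates 3 and 4 exchanged they stood at -3.88 and -4.09, every rat of 28D exceeded every C rat (exact permutation p = 0.00476, the smallest allowed), and the SD in 28D was 0.37 in place of 1.67. Limma gave an adjusted p of 0.212 after the exchange. Without both rats the difference was 1.42 (exact permutation p = 0.0286, n = 4 against 4). Leaving out replicate 3 or both rats thus kept the mean level of ADAMTS-4 in 28D above that of C, while the exchange could not change it. As deposited, the overlap of the groups rested on replicate 4. Without it alone the difference was 1.85 and the other 5 rats of 28D all exceeded every C rat (exact permutation p = 0.00794, n = 5 against 4, the smallest allowed).

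TIMP-1, an inhibitor of metalloproteinases, had the widest spread of the panel in 28D. Its log2 expression was -4.14, -4.07, 1.18, -5.34, -6.59 and -2.93 in replicates 1 to 6 of 28D, against -3.35, -3.53, -3.34 and -2.39 in C. Replicate 3 was above every C rat, replicates 1, 2, 4 and 5 were below every C rat, and within C replicate 5 lay above the other 3. The difference was -0.50 (SE 1.21, 95% interval -3.02 to 2.02, exact permutation p = 0.752). Without replicates 3 and 4 of 28D it was -1.28 (exact permutation p = 0.114, n = 4 against 4, where 0.0286 is the smallest allowed), and with the 2 exchanged it was the same as deposited (exact permutation p = 0.643). Replicate 3 as deposited is 20.1 times the mean of the measured C rats for TIMP-1, 11.8 times for ADAMTS-4 and 30.3 times for TNC.

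MMP-2, a gelatinase that cuts unfolded collagen, and TIMP-2, which inhibits it and takes part in its activation, varied little within 28D, with an SD of 0.19 and 0.36. MMP-2 lay between -1.09 and -0.61 in 28D, against -1.61 to -0.54 in C, so that every rat of 28D lay inside the range of C. TIMP-2 lay between -0.25 and 0.60 in 28D, against -0.46 to 0.09 in C, with 3 of 6 rats of 28D above all C rats. The log2 differences were 0.34 for MMP-2 (SE 0.34, exact permutation p = 0.148) and 0.40 for TIMP-2 (SE 0.41, exact permutation p = 0.10), n = 6 against 4. That of MMP-2 was 0.19 without replicate 1 of C (exact permutation p = 0.381). Without replicate 5 of C it was 0.55, with 5 of 6 rats of 28D above the other C rats (exact permutation p = 0.0238).

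Cytokine: IL-6, an inflammatory cytokine, amplified latest of the panel, with a mean Ct of 36.7 in 28D and 33.9 in C. Its log2 expression lay between -8.64 and -6.35 in 28D, against -8.64 to -6.51 in C, and 5 of the 6 wells of 28D came after cycle 35. The difference was -0.38 (SE 0.52, 95% interval -1.47 to 0.70, exact permutation p = 0.519). It was -0.06 without replicate 2 of C and -0.77 without replicate 3 of C. Wells up to cycle 35 are left in 1 rat of 28D and 2 of C, too few to compare.

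Matricellular proteins: TNC encodes tenascin C, a matrix glycoprotein made under load and in repair. Its log2 expression was -0.63, -1.29, 2.87, -2.67, -0.95 and -1.12 in replicates 1 to 6 of 28D, against -2.50, -1.78, -2.62, -1.57 and -1.78 in C. As in ADAMTS-4, 5 rats of 28D lay above all C rats and replicate 4 below all of them. The difference was 1.42 (SE 0.78, 95% interval -0.19 to 3.03, adjusted p = 0.282 from limma, exact permutation p = 0.087). It was 0.72 without replicate 3. Without replicate 4 it was 1.83 and the groups did not overlap (exact permutation p = 0.00794, n = 5 against 5). With replicates 3 and 4 exchanged they stood at 0.01 and 0.19, every rat of 28D exceeded every C rat (exact permutation p = 0.00433), and the SD in 28D was 0.61 in place of 1.85. Limma gave an adjusted p of 0.141 after the exchange. Without both rats the difference was 1.06 (exact permutation p = 0.0159, n = 4 against 5) and no rat of 28D lay among the C rats.

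FN (fibronectin), which links cells to the matrix, had a log2 expression of 0.22, -0.08, -0.72, 0.80, 1.06 and 1.22 in replicates 1 to 6 of 28D, against -0.40, -0.42, 0.18 and 0.21 in C. Replicates 1, 4, 5 and 6 of 28D lay above all C rats, replicate 1 only just, and replicate 3 below all of them. The difference was 0.53 (SE 0.48, exact permutation p = 0.219). SDC-4 (syndecan-4), a cell surface proteoglycan that binds fibronectin, lay between -1.32 and 0.10 in 5 rats of 28D, against -2.02 to -0.15 in 5 of C. Its difference was 0.35 (SE 0.48, exact permutation p = 0.429). It was 0.13 without replicate 1 of C and 0.59 without replicate 5 of C.

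The spread between rats was compared gene by gene. The SD of log2 expression was larger in 28D in 17 genes and larger in C in 5, with a median over the genes of 0.798 in 28D and 0.560 in C. With replicates 3 and 4 of 28D exchanged in the 4 genes the counts were 15 and 7. Without both rats they were 9 and 13, with a median SD of 0.427 in 28D and 0.560 in C. These rats held many of the highest and lowest values of 28D, and no rat of C was left out. The last counts therefore cannot show what the wider spread of 28D rested on. The counts were not tested. Replicate 4 of 28D had the highest value of its group in 11 genes and the lowest in 4, and replicate 3 the highest in 5 and the lowest in 9. Those of replicate 3 that were highest were ADAMTS-4, TIMP-1, SCX, ERG1 and TNC. In C, replicate 5 had the highest value in 13 of 22 genes and replicate 1 the lowest in 12 of its 18. With replicates 3 and 4 of 28D exchanged in the 4 genes, 8 of 22 genes had an exact permutation p under 0.05 and 4 had no overlap, against 6 and 2 as deposited. Without both rats the counts were 8 and 6, the genes without overlap being TGF-β1, VEGF, IGF-1a, COL1A1, ADAMTS-4 and TNC. In no reading with RPLP0 as the divisor and the Ct values as deposited, exchanged or without a rat did a gene pass by limma.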

How the data were processed

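Ct, ΔCt and folds of 22 target genes in CT of 22 labelled rats were used; the methods give 24 rats. The authors deposited the Ct, in cycles and not normalized, averaged over duplicate wells per the methods. In the deposited ΔCt table, a log2 scale with its sign reversed, the authors subtracted the Ct of RPLP0. The deposited fold changes are a ratio, 2 to the power of −ΔΔCt, to the mean of C. Not analysed here were CTGF, ACTB and GAPDH. Log2 expression was −ΔCt. Values equal within 1e-06 to the mean of the other rats of the group, in Ct or ΔCt, were left out, as were blanks (22 and 2 of 484 values in the series). The RPLP0 Ct of a rat was the most frequent value of Ct minus ΔCt.

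Tests were run in limma 3.58.1 (R 4.3.3), in 1 model with 4 group means and nothing else. The Benjamini-Hochberg adjustment was taken over the 22 genes in all 6 group pairs. Exact two-sided permutation tests of the rats used the difference of means (Python 3.11.15). The code was tested on simulated data. All 22 genes are named. Values of each rat, or the lowest, median and highest, are given for genes without overlap or with an exact p under 0.05, for SCX, MKX, TNMD and ERG1, and for 7 more (COL1A1, COL3A1, DCN, ADAMTS-4, TIMP-1, FN and TNC), chosen after their values were seen. The comparison and the gene lists were chosen with earlier results of these data known. There is no read depth in qRT-PCR, and the number of rats limits the precision. Nothing in the labels says that rats shared a litter or run, and per the methods all samples of a gene were amplified in 1 run. Promoter sequences were matched by symbol, found for all 22 genes in the gene table, and read from RefSeq (GRCr8). Other references, tables, scales, adjustments and leave-outs were tried as alternatives.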

Additional observations from a re-analysis of the deposited data

Results flagged for a closer look

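In 46 sets of values of 1 measure in 1 group of 4 to 6 rats, 4 rats lay far from the others of their group by Dixon's criterion, which chance alone meets in about 1 of 20 sets. COL1A1 in replicate 4 of 28D had a log2 expression of 2.44, while the other rats of 28D lay between -0.89 and 0.14. TNC in replicate 3 of 28D stood at 2.87, with the others between -2.67 and -0.63. This is 1 of the 4 genes in which replicate 3 had an earlier Ct than replicate 4. TIMP-1 in replicate 5 of C stood at -2.39, with the other C rats between -3.53 and -3.34. RPLP0 in replicate 4 of C had a Ct of 30.6, with the other C rats between 26.1 and 26.9. All target genes of that rat are set against this RPLP0 Ct, except the 8 left out, and its part in the results was not tested beyond leaving the rat out.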

How the results depend on the processing

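No gene passed by limma with RPLP0 or the target-gene mean as the divisor, with the Ct alone, with all deposited values kept, with late wells missing, on linear values, with least squares and Bonferroni adjustment, with other adjustments, with only 28D and C in the model (smallest adjusted p 0.140) or without any 1 rat (smallest 0.0773, without replicate 4 of 28D). The deposited fold change table gave 1 gene past the threshold, TIMP-1 at -2.11 (adjusted p = 0.0277 from limma). For TIMP-1 that table has no entry from replicate 3 of 28D, and it holds 0.131 for replicate 6 with no control mean subtracted, where 1.23 follows from its ΔCt. Without replicate 3 alone TIMP-1 was -1.46 (adjusted p = 0.403 from limma). The same departures are in ADAMTS-4, which that table turned to -0.20, and in TNC, at 0.31. Deviations of same-numbered rats from their group means correlated at -0.29 to 0.34 over the genes. These were not compared with rats of other numbers, so pairing by replicate number was not tested. With a replicate block 0 genes passed, as without it. Leaving out 1 rat gave 3 (without replicate 3 or 5 of 28D or 2 of C) to 8 genes (without replicate 4 of 28D) with an exact permutation p under 0.05, against 6 with all rats, while fewer rats also raise the smallest p. TGF-β1 and IGF-1a had no overlap in the 11 leave-outs, which follows from their separation with all rats and is no further test of it. With the target-gene mean 4 genes had an exact permutation p under 0.05, and 1 gene, VEGF, had no overlap.

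With the Ct alone the log2 difference turned to -1.84 in TGF-β1, -1.18 in IGF-1a and SMAD-2, -1.94 in DCN, -2.07 in MMP-2, -0.22 in ADAMTS-4, -2.01 in TIMP-2, -1.56 in SMAD-3, -0.72 in SCX, -0.82 in MKX, -0.67 in ERG1, -0.71 in TNMD, -1.89 in FN, -0.15 in TNC and -1.03 in SDC-4, since the RPLP0 Ct is then no longer subtracted. The median moved by -2.26, and by -0.27 with the target-gene mean, which turned MMP-2 to -0.025 and SMAD-3 to -0.26. With late wells missing TIMP-1 turned to 0.090 and IL-6 to 0.25 (17 genes higher in 28D, 5 lower), the last with 1 rat of 28D against 2 of C left, and on linear values TIMP-1 turned to 2.71. Without replicates 3 and 4 of 28D SMAD-2 turned to -0.030 and SMAD-3 to -0.49. Leaving out 1 rat gave -0.89 to 0.11 in FMOD, -1.46 to 0.090 in TIMP-1 and -0.41 to 0.29 in SMAD-3, and 1.29 to 2.41 cycles for RPLP0. The RPLP0 difference was 1.85 cycles with the mean over genes (exact permutation p = 0.0433). That mean kept the 12 values of C left out elsewhere. With them replicate 4 of C stood at 29.1 cycles in place of 30.6. For the other changes named here the cause was not tested, beyond what each setting leaves out.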

Other observations

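The deposited fold change table also departs from the ΔCt table in other single entries of 28D and C, which enter only the alternative that uses that table. For TNMD the entry of replicate 6 of 28D is 23.0, and 1.70 follows from its ΔCt and the mean of C. For ERG1 the entry of that rat is 2.98, and 3.84 follows. Both entries equal 2 to the power of −ΔCt with no control mean subtracted. For ERG1 the entry of replicate 4 of C, the highest C rat, is blank, where 2.84 follows. With that table the log2 difference of ERG1 was 1.22. For FMOD the entries of replicate 6 of 28D and replicate 5 of C are blank. That under replicate 4 of C is the value that follows for replicate 5.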
